A study of Mus musculus with 8 samples.

Results

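Solute carriers are membrane proteins that move sugars, amino acids, ions, metals, vitamins and nucleotides across cell and organelle membranes, and they were examined here in an m6A map of a mouse alpha cell line. The members were all protein-coding genes whose RefSeq symbol starts with Slc and a digit and whose span on mm10 held at least 1 mapped site, apart from the amino acid transporters Slc7a5, Slc7a1 and Slc6a9. Of 372 such genes in the annotation, 132 were members, among 6531 genes named at 1 or more sites. Of these, 126 had sites that lay in the span of no other protein-coding gene (694 sites), and 6 had only sites shared with a neighbour. By symbol the rule also took in 3 genes that are not carriers: Slc7a6os, Slc4a1ap, and Slc9a3r1, a scaffold that anchors membrane proteins. A member had a median of 4 sites, 29 members had 1 site, and Slc35b4 had the most, 25.

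The m6A mark is a methyl group on adenosine of messenger RNA, written mainly by a complex of Mettl3 and Mettl14 and read by proteins that alter the decay, splicing or translation of the transcript. It is known to lie most often in long internal exons, around stop codons and in 3′ untranslated regions. Solute carriers set what an islet cell can take up and store: glucose enters through the Slc2 family, amino acids that stimulate alpha cells enter through Slc1, Slc7 and Slc38 proteins, and Slc30a8 loads zinc into secretory granules.

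The cells were αTC1-6, an immortalized line of mouse glucagon-producing cells, so that every library came from 1 line. Cells transfected with an siRNA against Mettl14 (M14KD, replicates 3 and 4) were compared with cells given a scramble siRNA (SCR, replicates 1 and 2). From each replicate there was an IP library, from RNA selected by ultraviolet crosslinking to an antibody against m6A, and an Input library that measures the RNA before selection. That made 4 groups of 2 libraries, and the labels do not say whether replicates were grown apart, so the spread behind the p-values may be technical.

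Summed site counts were 10207383 to 10918559 in the IP libraries and 3438530 to 3637740 in the Input libraries. Mettl14, the target, had Input counts of 32 and 22 in M14KD against 64 and 44 in SCR, and IP counts of 42 and 25 in M14KD against 78 and 81 in SCR. The groups did not overlap, but the edgeR difference passed in neither kind of library (adjusted p = 0.26 in Input and 0.156 in IP), and protein or m6A levels were not measured here. Of 9 alpha cell markers 7 had a site, and of 10 markers of other islet cells 0 had one. The IP libraries of the SCR replicates differed from each other by a chi-square of 2.56 per site and those of M14KD by 1.96, where sampling noise alone gives a value near 1. SCR replicate 1 and M14KD replicate 4 were as close as that, at 2.51. The solute carriers took 1.86% and 1.89% of all site counts in the M14KD IP libraries, against 1.91% and 1.97% in SCR, and 1.33% and 1.37% in the M14KD Input libraries, against 1.35% and 1.38% in SCR.

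The level of antibody selection was read as IP over Input, a log2 ratio fitted by edgeR with TMM scaling to counts summed over a gene's own sites. CPM values, counts divided by the library total over all sites and multiplied to a common scale, are not corrected for the number of sites or the transcript length, so they compare libraries and not genes. In SCR, 124 solute carriers could be tested. Of these, 49 (39.5%) were higher in IP than in Input and 34 (27.4%) were lower at an adjusted p under 0.05, where over all genes tested 35.2% were higher and 34.7% lower. In M14KD, 52 were higher and 33 lower, where over all genes 35.5% were higher and 35.6% lower. The median ratio of the solute carriers was 0.23 in M14KD and 0.20 in SCR, beside medians over all genes of 0.02 in M14KD and 0.04 in SCR. The same 46 genes were higher and the same 30 lower in both genotypes, 32 were called in neither, and 0 were called in opposite directions. These were 37.1% higher, 24.2% lower and 25.8% in neither, beside 31.6%, 32.5% and 23.1% of all genes, of which 0 were called in opposite directions as well. The zero of this scale depends on the scaling: with summed counts in place of TMM the median over all genes in SCR was 0.75. Of the 124 solute carriers 92 were then higher and 13 lower in SCR, beside 3992 and 1062 of 6379 genes. All 49 higher calls held, as did all 2245 over all genes, but this scaling raised the ratios and so could not test them. Of the 34 lower calls 13 held and 14 had ratios above 0, beside 1062 and 617 of 2214 over all genes. Ratios are therefore best read against other genes and sites.

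**Figure D1:**
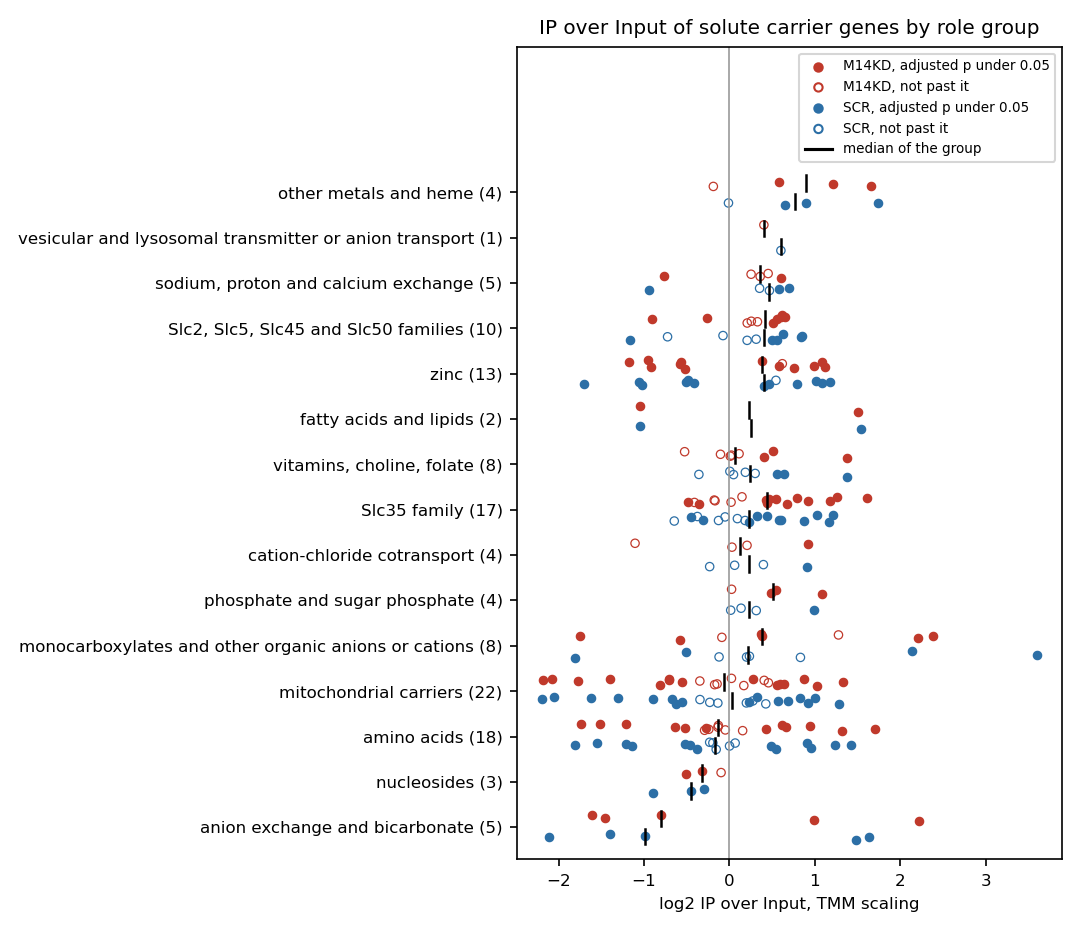
Log2 IP over Input (horizontal axis, TMM scaling) of the 124 tested solute carriers, grouped by role, with M14KD in red above SCR in blue in each row, and the number of genes in brackets. Filled points passed an adjusted p of 0.05, open points did not, and black bars are group medians. The row of anion exchangers has the lowest median in SCR, -0.99, and that of the other metals the highest, 0.77; the SCR point farthest to the right is Slc16a14, whose SCR Input libraries held 0 and 1 counts.

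Among the 10 tested genes of the sugar carrier families Slc2, Slc5, Slc45 and Slc50, which include the iodide carrier Slc5a5 and the vitamin carrier Slc5a6, 5 were higher in IP than in Input in SCR and 1 was lower, with a median ratio of 0.41. Slc2a1, the glucose carrier GLUT1 of most cells (chromosome 4, 119108745 to 119137330, plus strand), had 208 and 184 CPM in the M14KD IP libraries against 233 and 197 CPM in SCR, and 76.1 and 78.8 CPM in the M14KD Input libraries against 80.7 and 66.8 CPM in SCR. Every IP library lay above every Input library, and the genotypes overlapped in both kinds. Its ratio was 0.65 (SE 0.12) in M14KD and 0.85 (SE 0.12) in SCR. Slc2a5, the fructose carrier (chromosome 4, 150119344 to 150144168, plus strand), had ratios of 0.51 (SE 0.07) in M14KD and 0.50 (SE 0.07) in SCR over 21 sites. The gene lower in IP was Slc2a8, which sits on intracellular membranes, with ratios of -0.91 (SE 0.14) in M14KD and -1.16 (SE 0.13) in SCR; with summed counts the M14KD ratio was -0.20 and did not pass. Slc2a2, the glucose carrier of beta cells, had no site.

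The 18 tested genes of the amino acid families, which include the non-carrier Slc7a6os, split, with 6 higher, 7 lower and 5 not called in SCR and a median of -0.17. Slc38a5, a carrier of glutamine and other neutral amino acids that marks alpha cells (chromosome X, 8271381 to 8280179, plus strand), had 99.0 and 97.4 CPM in the M14KD IP libraries against 112 and 101 CPM in SCR, and 193 and 213 CPM in the M14KD Input libraries against 247 and 215 CPM in SCR. Its IP libraries were below its Input libraries throughout. The fitted ratio was -1.73 (SE 0.10) in M14KD and -1.81 (SE 0.10) in SCR, with an adjusted p of 2.04e-10 in SCR. Slc38a4, a related carrier with 1 site, had ratios of -1.51 (SE 0.13) in M14KD and -1.55 (SE 0.14) in SCR. The creatine carrier Slc6a8 was lower in IP as well, at -1.21 (SE 0.11) in SCR. At the other end stood Slc36a4, an amino acid carrier of the proton-coupled family, with ratios of 1.71 (SE 0.12) in M14KD and 1.43 (SE 0.12) in SCR. Slc7a14, a member of the cationic amino acid family (0.55, SE 0.08), and Slc6a17, a carrier of neutral amino acids on synaptic vesicles (0.49, SE 0.11), were also higher in SCR. Slc7a2, a cationic amino acid carrier, and Slc1a5, a glutamine carrier, were called in neither genotype.

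The 22 tested mitochondrial carriers of the Slc25 family had 8 genes higher, 8 lower and 6 not called in SCR, around a median of 0.03. Slc25a4, the ADP/ATP exchanger of the inner membrane (chromosome 8, 46207168 to 46211062, minus strand), had 808 and 747 CPM in the M14KD IP libraries against 681 and 662 CPM in SCR. In Input it had 2243 and 2149 CPM in M14KD against 1896 and 1909.7 CPM in SCR. All IP libraries lay far below all Input libraries, and in each kind both M14KD libraries lay above both SCR libraries. Its ratio was -2.18 (SE 0.07) in M14KD and -2.19 (SE 0.07, adjusted p = 7.24e-13) in SCR, the lowest of the tested solute carriers. Slc25a3, which carries phosphate into mitochondria (chromosome 10, 91116574 to 91124046, minus strand), had 836 and 815 CPM in the M14KD IP libraries against 849.6 and 918 CPM in SCR, and 1817 and 1679 CPM in the M14KD Input libraries against 1614 and 1746 CPM in SCR. It too was below Input in every library, with ratios of -1.77 (SE 0.08) in M14KD and -1.62 (SE 0.08) in SCR. Slc25a28, the iron carrier mitoferrin 2 (chromosome 19, 43663801 to 43675006, minus strand), stood on the other side, with ratios of 1.02 (SE 0.08) in M14KD and 0.92 (SE 0.08) in SCR. Slc25a16 was low at 1 site with few counts, at -2.05 (SE 0.40) in SCR.

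Zinc carriers had 6 genes higher, 6 lower and 1 not called of 13 in SCR; with summed counts 3 of the 6 lower genes (Slc30a8, Slc30a9 and Slc39a1) were still called lower and the other 3 had ratios above 0. Slc30a8, the zinc carrier of secretory granules ZnT8 (chromosome 15, 52295553 to 52335798), had 363 and 343 CPM in the M14KD IP libraries against 360.3 and 319 CPM in SCR, and 449.6 and 402 CPM in the M14KD Input libraries against 462 and 391 CPM in SCR. The genotypes overlapped in both kinds of library. Its ratio was -0.96 (SE 0.09) in M14KD and -1.02 (SE 0.09, adjusted p = 9.7e-08) in SCR. Slc39a1, a zinc importer of the plasma membrane, had ratios of -1.17 (SE 0.16) in M14KD and -1.71 (SE 0.16) in SCR. Slc39a7, which releases zinc from the endoplasmic reticulum, had ratios of -0.57 (SE 0.08) in M14KD and -0.51 (SE 0.08) in SCR, but 0.14 and 0.21 when summed counts set the scale. Of the remaining metal carriers, 3 of 4 were higher in IP in SCR, among them the iron carrier Slc11a2 at 1.66 (SE 0.29) in M14KD and 1.74 (SE 0.29) in SCR.

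The 17 tested members of the Slc35 family, which holds the carriers of nucleotide sugars into the Golgi and endoplasmic reticulum and members with other or no established substrates, were higher in 9 cases and lower in 2 in SCR, with a median of 0.23. Slc35b3, which carries the sulfate donor PAPS into the Golgi (chromosome 13, 38932132 to 38960879, minus strand), had ratios of 1.61 (SE 0.15) in M14KD and 1.21 (SE 0.15) in SCR. Slc35e1, a member with no established substrate (chromosome 8, 72477995 to 72492614, minus strand), had ratios of 1.26 (SE 0.10) in M14KD and 1.17 (SE 0.10) in SCR over 16 sites. Slc35b4, a carrier of UDP-sugars (chromosome 6, 34155872 to 34177054, minus strand), had 0.79 (SE 0.08) in M14KD and 0.61 (SE 0.08) in SCR.

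Among the smaller groups, vitamin, choline and folate carriers had 3 of 8 higher and 0 lower in SCR. They included the lysosomal carrier Slc46a3 (1.38, SE 0.23) and the choline transporter-like gene Slc44a2 (0.64, SE 0.10). All 3 nucleoside carriers were lower in SCR (-0.89 to -0.29) and 2 of them in M14KD, but with summed counts none was called lower in SCR and 2 had ratios above 0. The monocarboxylate carrier Slc16a1 had ratios of -0.58 (SE 0.08) in M14KD and -0.51 (SE 0.08) in SCR, and values above 0 with summed counts, whereas Slc16a9, of the same family, had 2.14 (SE 0.54) in SCR from low Input counts and 1.59, not past the threshold, without SCR replicate 2. The organic cation carrier Slc22a4 was lower (-1.81, SE 0.50), though not past the threshold without SCR replicate 2 (-1.03) or with summed counts (-1.10). The anion exchangers Slc4a2 (1.64, SE 0.31) and Slc4a8 (1.49, SE 0.27) were higher, and Slc26a11 (-2.11, SE 0.57), of the sulfate carrier family, and the non-carrier Slc4a1ap (-1.40, SE 0.23) were lower, but Slc26a11 did not pass without SCR replicate 1 (-1.64). Of the genes of lipid metabolism, the acetyl-CoA carrier Slc33a1 was higher (1.54, SE 0.17) and the fatty acid carrier Slc27a4 lower (-1.04, SE 0.13). Slc37a3, of the sugar phosphate family, was higher in both genotypes, at 1.09 (SE 0.11) in M14KD and 0.99 (SE 0.11) in SCR.

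For comparison, 14 genes of the same transport pathways with other symbols could be tested, among them the carriers Slco4a1 and Mpc2 and the Slc25 relative Mtch1. Of these 2 were higher in IP than in Input in SCR and 10 lower, with a median of -1.14. Those higher were Oxsr1, a kinase that activates cation-chloride cotransporters (1.18, SE 0.11), and Mtf1, a zinc-sensing transcription factor (0.55, SE 0.20). The lower genes included Bsg, the chaperone of monocarboxylate carriers (-1.67, SE 0.08), the sodium pump subunit Atp1b1 (-1.69, SE 0.06), and the zinc-binding metallothionein Mt1 (-2.04, SE 0.09). None of these 14 genes passed a test between the genotypes.

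At site level 241 of 688 tested sites were higher in IP in SCR and 224 lower, close to the shares over all sites of 34% and 33.4%, and in M14KD 232 were higher and 228 lower, beside 33.8% and 33.1% of all sites. Of 97 solute carriers with 2 or more tested sites, 41 (42.3%) had sites called in both directions in SCR, beside 37.1% of 4755 such genes in all. Slc2a5 had 12 sites higher and 5 lower of 21, with ratios from -3.68 to 1.86. Its lowest, at chromosome 4 position 150139722, lay 4446 bases from the 3′ end of the gene, and its other sites lay 190 to 1117 bases from that end. Slc35e1 had 10 sites higher and 4 lower of 16, reaching 2.74 at chromosome 8 position 72483563. That site had IP counts of 835 and 927 in M14KD against 1030 and 1048 in SCR, and Input counts of 24 and 36 in M14KD against 32 and 32 in SCR. Slc35b4 had 16 sites higher and 4 lower of 25. Sites are not independent, since 534 of the 694 (76.9%) had another site within 100 bases and may share reads.

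At other members all or nearly all mapped sites went one way. All 7 sites of Slc25a4, over 1958 bases, were lower in SCR, between -2.94 and -1.59, all 6 of Slc25a3, all 10 of Slc30a8 (-1.81 to -0.52) and all 8 of Slc6a8 were lower, and 11 of 12 sites of Slc37a3, which lay within 602 bases, were higher. The same held for the 4 sites of Slc38a5, but these lay within 56 bases of the 5′ end of the gene, so that the ratio of Slc38a5 describes its start alone.

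**Figure D2:**
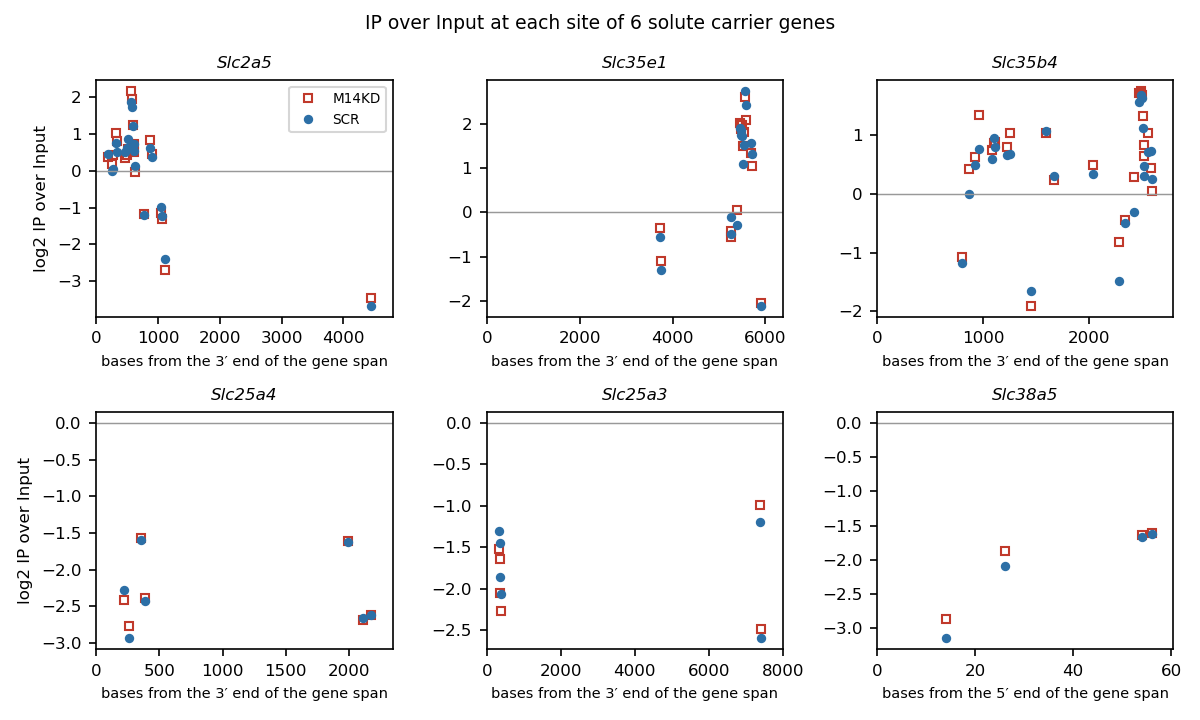
Log2 IP over Input at each site (vertical axis) of 6 solute carriers against the distance in bases from the 3′ end of the gene span, or from the 5′ end for Slc38a5; open red squares are M14KD and filled blue circles SCR. Slc2a5, Slc35e1 and Slc35b4 have sites on both sides of 0, while all sites of Slc25a4, Slc25a3 and Slc38a5 lie below it.

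The strand was known for 98 members with sites of their own, holding 542 sites. Within 1000 bases of the 3′ end of the span lay 34.1% of these sites (27.5% over all protein-coding genes), from there to 5000 bases 45.6% (44.0%) and farther away 20.3% (28.6%). Median ratios in SCR were 0.02, 0.18 and -0.07 in these classes, beside -0.21, 0.22 and 0.06 over all genes. The plainest pattern was at the start: 10 sites in 5 solute carriers (Slc1a4, Slc25a3, Slc2a1, Slc35g1 and Slc38a5) lay within 200 bases of the 5′ end, and all 10 were lower in IP than in Input in SCR, with a median of -1.64. Over all genes the same place held 725 tested sites, of which 84.4% were lower and 1.52% higher, with a median of -1.16, so start sites of other genes went the same way. Spans are of whole genes, introns included, and exons were not used here, so sites were not assigned to coding or untranslated sequence. The genes of the start sites were chosen after their values were seen.

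**Figure D3:**
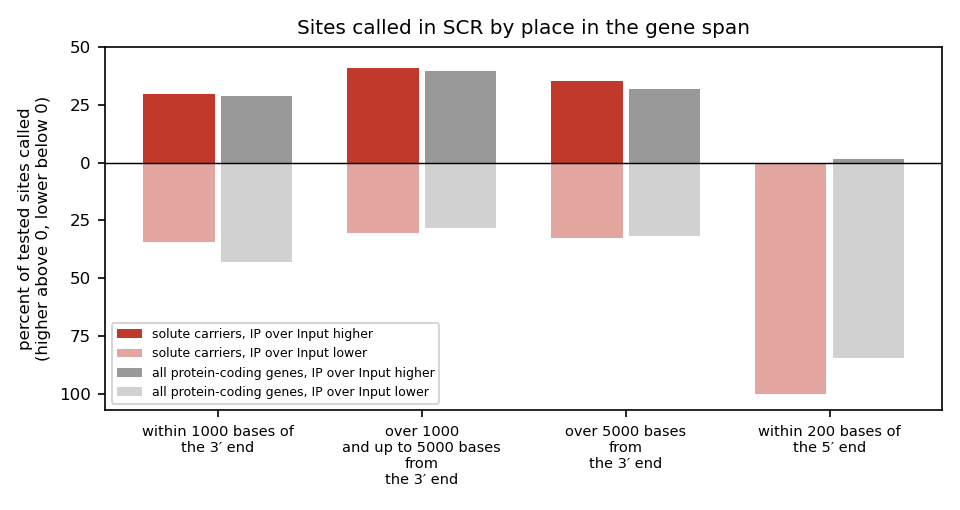
Percent of tested sites called higher in IP than in Input (above 0) or lower (below 0) in SCR, by distance from the 3′ or 5′ end of the gene span, for solute carriers (red) and all protein-coding genes (grey). The classes by distance from the 3′ end do not overlap each other, and the start sites are also counted in one of them; within 200 bases of the 5′ end all 10 solute carrier sites and 84.4% of all sites were lower.

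Sequence was at hand only in promoter windows, from 250 bases before an annotated start to 50 bases after it. Shown are 5 start sites of named members, among them the lowest site of Slc25a3 and the 2 lowest of the 4 sites of Slc38a5. The other 2 sites of Slc38a5, with ratios of -1.67 and -1.62 in SCR, are not shown. They lay 54 and 56 bases from the 5′ end, past the window. The Slc25a3 sites lay at -26 and -2 bases from the annotated start of their window, so before it, but 53 and 77 bases inside the gene span. Each line gives 21 bases on the strand of the gene, 5′ to 3′, from RefSeq promoter windows of GRCm38.p6, with the mapped base in capitals.
Slc25a3, chr10:91123983-91124003, minus strand: aagggcacggAtcttcgggcc
Slc25a3, chr10:91123959-91123979, minus strand: aggacattcgGcctctgtgag
Slc2a1, chr4:119108742-119108762, plus strand: acctacacccCagaaccaatg
Slc38a5, chrX:8271385-8271405, plus strand: tgggggcgggAgatagggact
Slc38a5, chrX:8271397-8271417, plus strand: atagggactgAaagagacaga
The mapped base was an A in 3 of these 5. In none was it the methylated A of the DRACH consensus (A, G or T, then A or G, then the A, then C, then A, C or T), read on the strand of the gene only. The consensus did occur beside the mapped base in most of these lines. It was ggact in each Slc38a5 line, ggaca in the second Slc25a3 line and gaacc in the Slc2a1 line. The first Slc25a3 line held no match. Over all 453 pairs of a site and a promoter window of its own gene, 37.7% were at an A and 4.86% at the A of this consensus. A site that lies in several windows can be counted repeatedly. These windows differ from the class of sites within 200 bases of the 5′ end. A match or its lack describes these letters only.

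Counts at these sites were of similar size in both genotypes. The first Slc38a5 site, at position 8271395, had IP counts of 57 and 58 in M14KD against 56 and 53 in SCR, and Input counts of 89 and 85 in M14KD against 113 and 86 in SCR. Although the IP libraries are about 3 times as deep, they held fewer reads there than the Input libraries, and the ratio in SCR was -3.15 (SE 0.18). At Slc25a3 position 91123993 IP counts were 149 and 150 in M14KD against 143 and 145 in SCR, and Input counts were 187 and 159 in M14KD against 182 and 178 in SCR (ratio in SCR -2.60). The start site of Slc2a1 had few counts, 15 and 6 in the M14KD IP libraries against 13 and 19 in SCR, and a ratio of -1.66 in SCR, opposite in sign to the ratio of the whole gene.

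The next comparison asked which solute carriers gained or lost IP reads after Mettl14 knockdown. At gene level 0 of 125 tested solute carriers passed an adjusted p of 0.05 with edgeR, which called 0% of all 6381 genes. DESeq2 gave an adjusted p to 57 of the solute carriers and called 0 of them, while over all genes it called 46, or 1.65% of those given one. At an unadjusted p under 0.05 there were 16 solute carriers (12.8%), beside 14.1% of all genes: 4 with higher values in M14KD (7.48% of all genes) and 12 with lower values (6.63% of all genes). At site level 0 of 687 sites passed, beside 0.63% of all sites, and 69 (10%) had an unadjusted p under 0.05, beside 13.3% of all sites. DESeq2 gave 158 of these sites an adjusted p and called 0, beside 120 sites in all (1.75% of those given one). The values leaned below 0: 71 of 125 genes (56.8%) had lower fitted values in M14KD, beside 47.6% of all genes, with a median of -0.05 beside 0.01. In 45 genes (36%) both M14KD libraries lay below both SCR libraries in CPM, beside 26.3% of all genes, and in 16 (12.8%) both lay above, beside 19.8%. The median SE of a gene was 0.10 on the log2 scale.

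**Figure D4:**
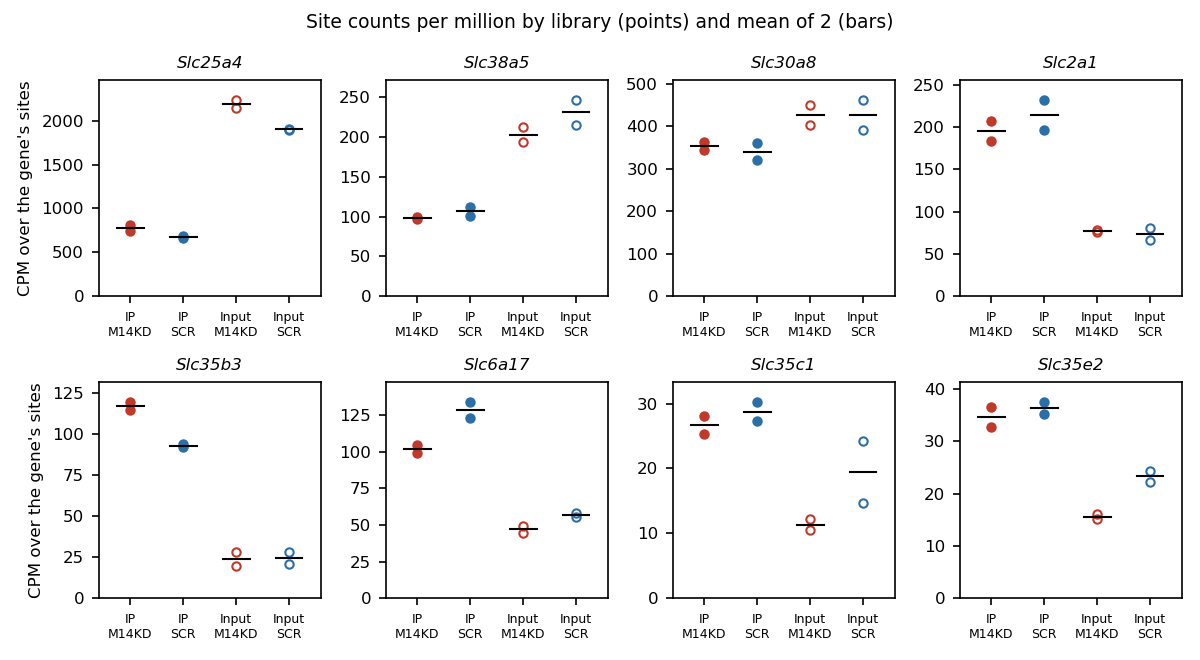
CPM summed over a gene's own sites in each library (points) and the mean of the 2 libraries (bars) for 8 solute carriers; filled points are IP, open points Input, red is M14KD and blue SCR. Slc35b3 and Slc25a4 have both M14KD IP libraries above SCR and Slc6a17 has both below, while Slc35c1 and Slc35e2 differ in Input.

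The solute carrier with the lowest p was Slc35b3, the PAPS carrier. It had 120 and 115 CPM in the M14KD IP libraries against 92.1 and 94.0 CPM in SCR, and 19.9 and 27.9 CPM in the M14KD Input libraries against 28.5 and 21.2 CPM in SCR. The IP groups were apart and the Input groups overlapped. The log2 difference in IP was 0.35 (SE 0.08, adjusted p = 0.206). Slc25a4 had an IP difference of 0.23 (SE 0.07, adjusted p = 0.234). In both kinds of library both of its M14KD values lay above both SCR values. Its site at chromosome 8 position 46207424, 256 bases from the 3′ end, had IP counts of 917 and 774 in M14KD against 701 and 670 in SCR, a difference of 0.38 (SE 0.09). This was the lowest adjusted p of any solute carrier site (0.059), and it passed in a fit of all 8 libraries (0.046). That fit called 300 sites over the whole table.

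Slc25a28 had 523 and 506.5 CPM in the M14KD IP libraries against 456 and 443 CPM in SCR, a difference of 0.22 (SE 0.07), with all 8 sites above 0. Slc39a10, a zinc importer with 1 site (0.47, SE 0.19), and Slc26a11 (0.94, SE 0.49) had larger values with wider errors, and neither passed; that of Slc26a11, a gene of few counts, was 0.45 without replicate 1 and 1.64 without replicate 2.

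On the lower side, Slc6a17, the carrier of synaptic vesicles (chromosome 3, 107467548 to 107518018, minus strand), had 99.1 and 105 CPM in the M14KD IP libraries against 123 and 134 CPM in SCR, and 44.8 and 49.4 CPM in the M14KD Input libraries against 55.6 and 58.0 CPM in SCR. Both groups were apart in the same direction, with differences of -0.31 (SE 0.09, adjusted p = 0.221) in IP and -0.27 (SE 0.14) in Input. All 5 of its sites had lower IP values in M14KD, and the site at position 107470894 had IP counts of 207 and 211 in M14KD against 295 and 307 in SCR (adjusted p = 0.073). Slc35e1 had 769 and 848 CPM in the M14KD IP libraries against 918 and 1001.0 CPM in SCR, with all 16 sites below 0. Its difference was -0.22 (SE 0.08) in IP and -0.33 (SE 0.12) in Input, the Input value being -0.14 without replicate 3 and -0.52 without replicate 4.

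The creatine carrier Slc6a8 had differences of -0.25 (SE 0.09) in IP and -0.27 (SE 0.11) in Input, where it was -0.11 without replicate 2 and -0.15 without replicate 3. Slc29a1, a nucleoside carrier (-0.21, SE 0.07), and Slc39a14, an importer of zinc and iron with 1 site (-0.43, SE 0.15, and -0.27 without replicate 2), completed the 5 lowest p on this side, none past the threshold. Slc38a5 (-0.10, SE 0.09) and Slc30a8 (0.08, SE 0.08) differed by about their standard error.

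Library choice mattered for sites. Without SCR replicate 1, which left SCR with 1 library, the median IP difference of solute carrier sites was -0.057, beside 0.005 over all sites. The solute carrier median was -0.024 without SCR replicate 2, -0.023 without M14KD replicate 3 and -0.076 without M14KD replicate 4. With all IP libraries it was -0.043. Calls at single sites moved too. Their counts are given with the alternatives below, and no conclusion on single sites is drawn from fits with 1 library in a group. No count of solute carrier genes in IP moved from 0 under the alternatives run.

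By role, 0 genes passed in any group. Zinc carriers had a median IP difference of 0.07, with 10 of 13 above 0, Slc35 genes -0.06, with 12 of 17 below 0, amino acid families -0.05 and sugar carrier families -0.08, and all 4 cation-chloride cotransporters were below 0 (median -0.17). For scale, the 3 amino acid transporters that are not members had IP differences of -0.56 (Slc7a5, SE 0.08), -0.36 (Slc7a1, SE 0.09) and -0.63 (Slc6a9, SE 0.12). Their edgeR adjusted p were 0.066, 0.21 and 0.15. In Input they differed by -0.47, -0.50 and -0.40 in the same order, and net of Input by -0.10, 0.12 and -0.25, none past the threshold.

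The Input libraries show the RNA before antibody selection. In bulk RNA, fewer cells with a transcript and less of it per cell cannot be told apart. Of 113 tested solute carriers 0 passed with edgeR, beside 0% of all genes. DESeq2 gave 26 of them an adjusted p and called 0, while it called 22 of all genes (2.03% of those given one). At an unadjusted p under 0.05 there were 13 (11.5%), beside 10.2% of all genes: 2 with higher values in M14KD (4.84% of all genes) and 11 with lower values (5.36% of all genes). At site level 0 of 647 passed, beside 0.0929% of all sites, and 43 had an unadjusted p under 0.05 (6.65%, beside 8.69%). Fitted values were below 0 in 72 genes (63.7%), beside 50.6% of all genes, with a median of -0.06 beside -0.00. This lean depended on M14KD replicate 3, without which the solute carrier median was -0.006, beside 0.003 over all genes. It was -0.078 without SCR replicate 1, -0.051 without SCR replicate 2 and -0.068 without M14KD replicate 4. Each of these fits left 1 library in a group.

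Slc35c1, the carrier of GDP-fucose (chromosome 2, 92452764 to 92460518, minus strand), had 10.5 and 12.2 CPM in the M14KD Input libraries against 14.7 and 24.2 CPM in SCR, and 25.4 and 28.1 CPM in the M14KD IP libraries against 27.3 and 30.3 CPM in SCR. The Input groups were apart, with a wide gap between the SCR libraries, and the IP groups overlapped. Its Input difference was -0.78 (SE 0.26, adjusted p = 0.323). It was -1.09 without SCR replicate 1 and -0.36 without SCR replicate 2. Each of these fits left SCR with 1 library, and whether the gene passed depended on the library left out.

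Slc35e2 (chromosome 4, 155601416 to 155623340), of no established substrate, had 16.1 and 15.1 CPM in the M14KD Input libraries against 24.3 and 22.3 CPM in SCR. Its IP values overlapped, at 32.8 and 36.6 CPM in M14KD against 35.2 and 37.6 CPM in SCR. The Input difference was -0.58 (SE 0.19). Of its 6 sites 4 also lie in the span of a noncoding gene, whose reads cannot be told apart from its own. Slc22a23, an orphan of the organic ion family, had 17.7 and 17.7 CPM in the M14KD Input libraries against 25.7 and 26.7 CPM in SCR (-0.56, SE 0.18). Slc2a8 had 32.9 and 29.4 CPM in the M14KD Input libraries against 43.4 and 44.0 CPM in SCR (-0.49, SE 0.15), and its IP groups were apart in the same direction.

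Slc25a4 (0.21, SE 0.07) and the non-carrier Slc7a6os (0.39, SE 0.15) had the lowest p above 0 in Input; that of Slc7a6os was 0.61 without replicate 3, 0.16 without replicate 4 and 0.22 with 1 site per 100 bases. They were followed by the folate carrier Slc46a1 (0.80, SE 0.40), the sugar carrier Slc50a1 (0.23, SE 0.14) and the mitochondrial carrier Slc25a27 (0.55, SE 0.36), which was 1.09 without replicate 1 and 0.17 without replicate 2. Slc38a5 had an Input difference of -0.19 (SE 0.10) with both M14KD libraries below both SCR libraries. Of the 17 Slc35 genes 13 were below 0 in Input.

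**Figure D5:**
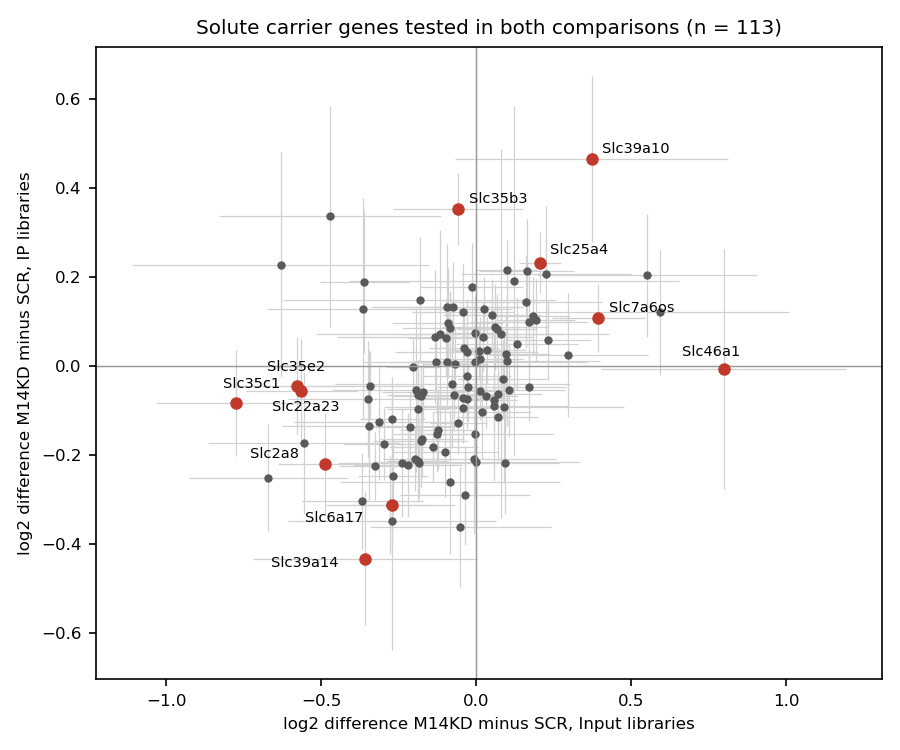
Log2 difference M14KD minus SCR of 113 solute carriers in the Input libraries (horizontal axis) and the IP libraries (vertical axis), with standard errors as grey lines; red points are named in the text. None of the differences passed an adjusted p of 0.05; Slc35b3 lies above 0 in IP alone, Slc25a4 above 0 in both, Slc6a17 below 0 in both, and Slc35c1, Slc35e2 and Slc22a23 mainly below 0 in Input.

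The last comparison took the Input difference off the IP difference. None of 124 solute carriers and none of 688 sites passed with edgeR or DESeq2, beside 0% of all genes and of all sites. At an unadjusted p under 0.05 there were 4 genes (3.23%), beside 2.63% of all genes, and 22 sites (3.2%, beside 3.72%). When the model paired IP and Input libraries by replicate number, 41 of 688 sites had an unadjusted p under 0.05. Of these 0 passed after adjustment, beside 1 of all sites. All 4 genes had higher IP over Input in M14KD. Of all genes 0.941% were higher and 1.69% lower at this p, and the side was seen before it was set apart. The 4 genes were Slc35e2 (0.52, SE 0.21), Slc35c1 (0.68, SE 0.29, and 0.33 without replicate 2), Slc22a23 (0.49, SE 0.21) and Slc39a1 (0.53, SE 0.22), each with an adjusted p of 0.999. In each of the 4 genes both M14KD Input libraries lay below both SCR Input libraries, and the IP libraries of the genotypes overlapped. Slc39a1 had 37.1 and 43.3 CPM in the M14KD Input libraries against 51.4 and 51.7 CPM in SCR, and 24.8 and 32.5 CPM in the M14KD IP libraries against 22.7 and 28.4 CPM in SCR. Slc35b3, the gene with the lowest p in IP, had a difference of 0.39 (SE 0.21) net of Input, and between 0.15 and 0.67 when 1 replicate was left out. The median SE here was 0.20, so that a gene needed a larger difference than in IP alone to pass.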

How the data were processed

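The authors deposited 1 table of whole-number read counts per site, not normalized, with 1 column per library, per the file headers. The submitters' processing notes name STAR, cutadapt and UMI-tools and the build mm10. Site calling, the counting window and any removal of duplicate molecules are not given in the sources. Per the labels' protocols an m6A antibody was crosslinked to RNA with UV-C light. Sites were named from RefSeq gene spans (GRCm38.p6), and counts were summed over the sites that lay in the span of 1 protein-coding gene only; neighbouring sites may share reads, and no strand was used to assign them. The strand in the promoter table was used for positions and sequences.

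edgeR 4.0.16 (filterByExpr, TMM, quasi-likelihood F-test, R 4.3.3) was run on the whole table of sites and of genes, with Benjamini-Hochberg adjustment over the table and a threshold of 0.05; the SE is the absolute log2 difference over the square root of F. M14KD was compared with SCR in 4 IP and in 4 Input libraries. IP over Input in each genotype and its difference came from 1 model of 8 libraries. The fits were also run on simulated counts with 200 changed features, and no result of that run is used here. Each feature was drawn on its own with a spread fitted to these data, so reads shared by neighbouring sites were not simulated. Alternatives were DESeq2 1.42.0, other scalings and filters, 1 site per 100 bases, replicates left out and, for IP over Input, the replicate number as a block. The numbers are those of the labels, and deviations of IP and Input libraries of 1 number correlated (r = 0.28 in SCR, 0.20 in M14KD, over 6379 genes), so the block is a pairing.

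The members, role groups and gene lists were chosen with earlier results of these data known. Named were the 5 genes of lowest p on each side of each genotype comparison, the 8 highest and 8 lowest called ratios in SCR, the 10 genes with the most sites, the gene with the highest Input in each role group and a list of islet-related carriers. The role groups follow the number of the carrier family.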

Additional observations from a re-analysis of the deposited data

How the results depend on the processing

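Under the alternatives run, 0 solute carrier genes passed between the genotypes in IP or net of Input, and 0 sites net of Input. Where the counts moved, 1 IP site passed with all 8 libraries in 1 model, 9 IP sites passed without replicate 1, and 1 Input gene and 1 Input site did so too; the cause was not tested, and in these fits SCR had 1 library, assumed to vary like the others. Called ratios numbered 66 to 105 genes and 368 to 535 sites in SCR, and 61 to 96 genes and 343 to 514 sites in M14KD; the alternatives for these site counts were chosen after seeing the data. With the replicate number as a block, 91 genes were called in M14KD and 90 in SCR, and 0 between the genotypes, and no call of a named gene changed. Scaling to summed counts turned the ratio of Slc16a1 to 0.13 in M14KD and 0.21 in SCR and that of Slc39a7 to 0.14 in M14KD and 0.21 in SCR, by the shift of all ratios it brings. The IP difference of Slc30a8 was -0.0168 without replicate 2. Of 784 alternatives for single values named here, the rest kept their direction, and apart from Slc35c1 in Input the calls that changed were lost when 1 SCR replicate was left out (Slc16a9, Slc22a4 and Slc26a11) or with summed counts (Slc22a4 in SCR, Slc2a8 in M14KD). Input depth limits the comparisons: the median SE of a gene was 0.16 in Input and 0.10 in IP.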

Other observations

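Solute carriers whose sites lie in the span of a second protein-coding gene were left out of the gene counts, since the reads of both genes cannot be told apart. Slc5a3, the carrier of the osmolyte myo-inositol, shared all 9 of its sites with Mrps6, a gene of the mitochondrial ribosome. Their log2 IP over Input in SCR ran from -0.49 to 2.80. Slc10a3 shared 7 sites, with ratios from -0.60 to 1.34, and Slc33a1 shared 7 beside the 1 site of its own, with ratios from 0.57 to 1.36. Of the islet-related carriers looked for by name, Slc2a2, Slc3a2, Slc7a8, Slc18a1 and Slc25a5 had no site in the table, which says nothing of their expression.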
